A study of Zea mays with 8 samples.

Results

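The genes described are 3 maize KNOX genes, kn1, lg3 and knox7, and rs2, whose product represses KNOX genes. They were found through the array's platform annotation, by symbol or synonym. Each is read by 1 annotated probe set (a group of short probes for 1 transcript), so the members are 4 of the 1108 genes that the annotation names, among 17621 probe sets that are not array controls. In the annotation kn1 is LOC542391 on chromosome 1, lg3 is LOC542487 on chromosome 3, knox7 is LOC732756 on chromosome 4 and rs2 is LOC542488 on chromosome 1. None of them lies on chromosome 5 or 6, the pair that differs between the genotypes.

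The arrays hold 4 pools of DpDf seedlings and 4 pools of wild-type (WT) siblings, with 12 plants a pool. DpDf plants have, beside 1 normal chromosome 6, a 65 chromosome from the T5-6b translocation: it has lost the end of the chromosome 6 satellite and carries most of the short arm of chromosome 5, which is thus present in an extra copy. All plants were in the B73 background and came from self-pollinated DpDf parents, and were sorted by 1 marker linked to the chromosome 5 break. All tissue above the brace roots, meristems included, was taken on day 11. DpDf and WT pools with the same replicate number are siblings. They were treated as pairs only where pairs, sign flips or a replicate block are named. The planned fit without a block and the permutation over arrays took no account of pairs. Replicates 1 and 3 came from 1 seed source and replicates 2 and 4 from another, so pools are siblings across those numbers as well.

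KNOX genes encode homeodomain transcription factors of the TALE class. Class I members such as kn1 and lg3 act in the shoot meristem, where they keep cells undetermined, and are switched off where a leaf starts. Class II members such as knox7 are expressed more broadly. RS2 is a MYB-domain protein of leaf primordia, the counterpart of AS1 of Arabidopsis, and in rs2 mutants KNOX proteins accumulate in leaves.

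Array medians ran from 135.9 to 138.9 in DpDf and from 136.6 to 142.4 in WT, on a linear intensity scale. All 8 matched green leaf markers passed the filter on low signal, a mean log2 value equal to a linear 27.0, against 3 of 10 seed markers and 1 of 7 tassel or ear markers; the 1 matched root marker also passed. The leaf markers' summed intensity ran from 78039 to 88512 in DpDf and from 65611 to 81406 in WT. A measure of RNA quality, the 3′ minus 5′ log2 difference of 5 control transcripts, was 1.20 ± 0.23 in DpDf and 0.91 ± 0.13 in WT (SD, n = 4 each).

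The comparison asks how the segmental aneuploidy alters transcript levels of the KNOX genes and of their repressor. kn1, lg3 and rs2 each had a lower mean in DpDf, and knox7 had nearly the same mean in both genotypes. None of the 4 passed an adjusted p of 0.05 in limma without a block, with p-values adjusted over all 12335 probe sets tested, of which 4.87% passed (4.03% higher in DpDf and 0.843% lower); 1 member, rs2, had an unadjusted p under 0.05. With replicate number as a block, kn1 and lg3 fell past that threshold in limma, 2 of 4 members. Of all probe sets, 10.2% passed with the replicate block (6.81% higher in DpDf and 3.35% lower). With seed source as the block instead, 0 members passed (limma adjusted p = 0.294 for kn1 and 0.324 for lg3). The members' log2 differences (DpDf minus WT) ran from -0.53 to 0.032, and the median over all tested probe sets was -0.023.

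**Figure D1:**
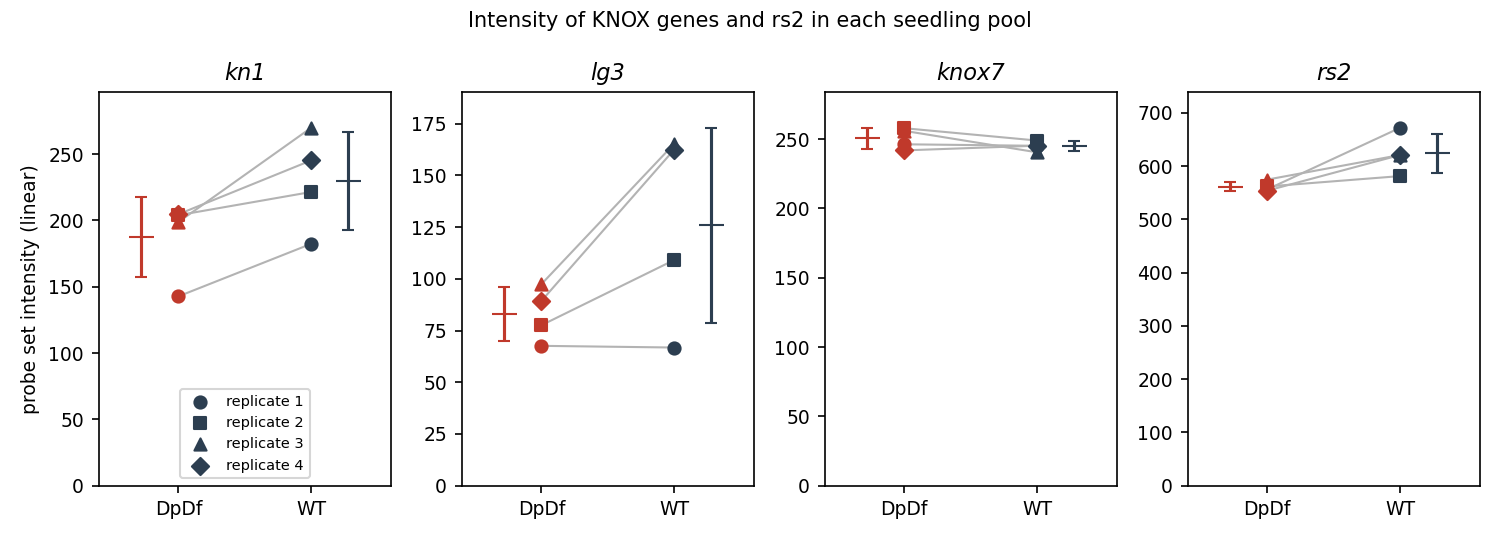
Probe set intensity (linear scale, from 0) of kn1, lg3, knox7 and rs2 in each pool, DpDf on the left and WT on the right of each panel; lines join pools of the same replicate number, and bars beside the points are the mean and SD of 4 pools. The DpDf point lies below its WT partner in all 4 pairs for kn1 and rs2, in 3 pairs for lg3 and in 1 pair for knox7.

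kn1, the founding KNOX gene, is needed to maintain the shoot meristem, and its dominant alleles cause knots of tissue on leaf veins. DpDf replicates 1 to 4 had intensities of 142.7, 203.9, 198.7 and 204.6, against 182.3, 221.4, 269.8 and 245.2 in WT replicates 1 to 4. The groups overlapped, because WT replicate 1 lay below 3 of the DpDf pools, yet each DpDf pool lay below its own WT partner. DpDf pools were at 78.3%, 92.1%, 73.6% and 83.4% of their partners. Of all tested probe sets, 18.1% were lower in DpDf in all 4 pairs.

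Mean log2 intensity of kn1 was 7.53 ± 0.25 in DpDf and 7.83 ± 0.24 in WT (SD, n = 4 each), a fold of 0.82 between geometric means with a 95% interval of 0.65 to 1.03. The log2 difference was -0.29 (SE 0.15, limma adjusted p = 0.362), and an exact two-sided permutation over the 70 assignments of the arrays gave p = 0.200. The replicate block left the difference at -0.29 and brought the SE to 0.072 (limma adjusted p = 0.0387). Exact sign flips of the 4 pair differences gave p = 0.125, the smallest that 16 flips allow. In tissue of mixed cells, fewer meristem cells and less kn1 RNA in each cell cannot be told apart.

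DpDf replicate 1 had the lowest kn1 value of all pools and also the highest 3′ minus 5′ measure, 1.52, against 0.98 to 1.20 in the other DpDf pools and 0.79 to 1.07 in WT. Without that pool the kn1 difference was -0.17 (limma adjusted p = 0.581). With the 3′ minus 5′ measure as a covariate it was -0.087 (limma adjusted p = 0.972), and with covariate and replicate block together -0.24 (limma adjusted p = 0.320). The kn1 call made with the block was also lost, at an adjusted p of 0.0731 in limma, when no filter on low signal was set. In fits chosen after seeing the data, with the block and 1 pair left out, it was lost without pair 1 (-0.27, limma adjusted p = 0.0861), pair 3 (-0.24, limma adjusted p = 0.183) or pair 4 (-0.30, limma adjusted p = 0.113), and kept without pair 2 (-0.35, limma adjusted p = 0.0395). The part of RNA quality in the kn1 difference was not tested beyond these fits.

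lg3 (liguleless3) is a class I gene whose dominant mutations put KNOX expression in the leaf blade and shift the boundary between blade and sheath. Across DpDf replicates 1 to 4 the intensity read 67.6, 77.6, 97.4 and 89.3, against 66.8, 109.1, 165.3 and 162.5 in WT replicates 1 to 4. WT replicate 1 was the lowest of all 8 pools, and the other 3 WT pools lay above every DpDf pool. In pair 1 the DpDf pool was at 101.2% of its partner, and in pairs 2 to 4 it was at 71.1%, 58.9% and 54.9%.

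Mean log2 intensity of lg3 was 6.36 ± 0.23 in DpDf and 6.89 ± 0.62 in WT (SD, n = 4 each), a fold of 0.69 between geometric means with a 95% interval of 0.46 to 1.05. The log2 difference was -0.53 (SE 0.27, limma adjusted p = 0.363), the exact two-sided permutation p was 0.200, and exact sign flips gave p = 0.250. With the replicate block the SE was 0.14 and the limma adjusted p was 0.0492. That call was lost with the block when no filter was set (limma adjusted p = 0.101) or when arrays were quantile normalized (limma adjusted p = 0.0570).

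Replicate 1 weighed on the lg3 result. Without WT replicate 1 the difference was -0.80 (SE 0.18, limma adjusted p = 0.0364), with no block. In fits chosen after seeing the data, with the block and 1 pair left out, it was -0.71 without pair 1 (SE 0.096, limma adjusted p = 0.00228). The call was lost without pair 2 (-0.54, limma adjusted p = 0.113), pair 3 (-0.45, limma adjusted p = 0.212) or pair 4 (-0.41, limma adjusted p = 0.183). With the 3′ minus 5′ covariate it was -0.36 without the block (limma adjusted p = 0.914) and -0.89 with it (limma adjusted p = 0.00719). All of these estimates for lg3 were negative; their sizes differed by more than the SE of the planned fit.

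knox7, a class II gene, showed hardly any spread between pools. Intensities of 246.2, 257.8, 255.9 and 241.8 were read in the 4 DpDf pools in replicate order, against 245.1, 248.9, 240.4 and 245.2 in WT replicates 1 to 4. The groups overlapped, and 3 of the 4 DpDf pools were slightly above their WT partners. The means were 250.4 ± 7.67 in DpDf and 244.9 ± 3.48 in WT (SD, n = 4 each).

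The log2 difference of knox7 was 0.032 (SE 0.058; adjusted p in limma 0.831 unblocked and 0.777 blocked by replicate). Its 95% interval in fold ran from 0.93 to 1.12, so a fall of the size estimated for kn1 or lg3 lies outside it.

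rs2 (rough sheath2) is needed for normal blade and sheath development. The 4 DpDf pools, in replicate order, had 556.3, 561.7, 574.6 and 553.9 intensity units, against 671.9, 581.2, 620.8 and 620.8 in WT replicates 1 to 4. Every DpDf pool lay below every WT pool, as was so for 4.80% of all tested probe sets. DpDf pools were at 82.8%, 96.6%, 92.6% and 89.2% of their partners in pairs 1 to 4.

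Mean log2 intensity of rs2 was 9.13 ± 0.024 in DpDf and 9.28 ± 0.086 in WT (SD, n = 4 each), a fold of 0.90 between geometric means with a 95% interval of 0.82 to 0.99. The log2 difference was -0.15 (SE 0.062, unadjusted p = 0.0369, adjusted p = 0.251 in limma), and 17.0% of all tested probe sets had an unadjusted p this side of 0.05. The exact two-sided permutation p was 0.0286, the smallest that 70 assignments allow, and it is not adjusted over the probe sets. Exact sign flips of the 4 pair differences of rs2 gave p = 0.125, the smallest that these flips allow. The replicate block gave nearly the same SE, 0.060, and a limma adjusted p of 0.165, so rs2 missed the threshold in both fits. With the 3′ minus 5′ covariate the rs2 difference was -0.10 (SE 0.082, limma adjusted p = 0.858).

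**Figure D2:**
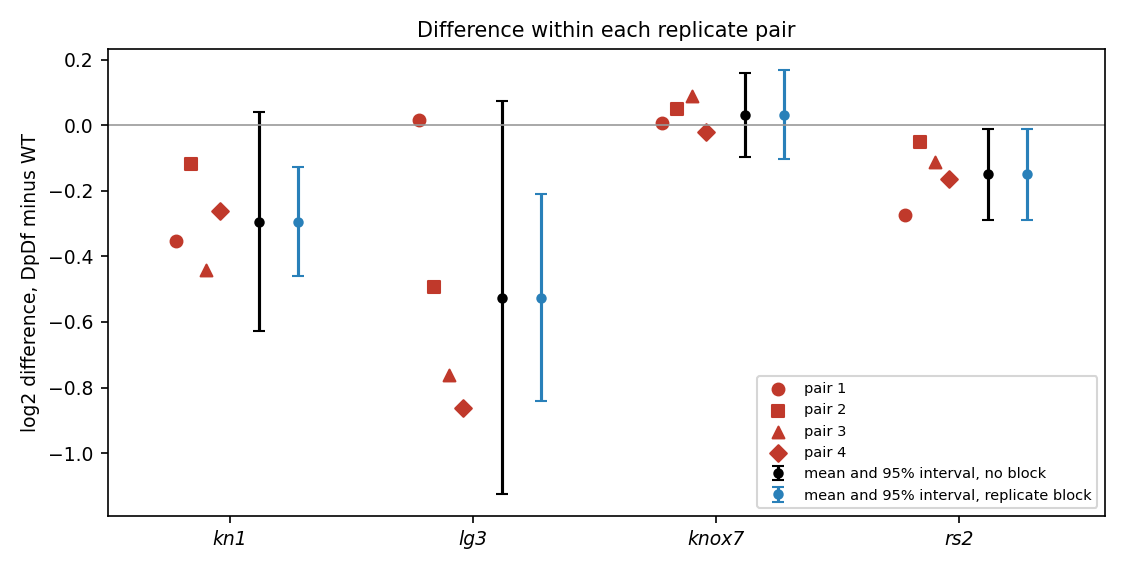
Log2 difference (DpDf minus WT) within each of the 4 replicate pairs, with the mean and its 95% interval in limma without a block (black) and with the replicate block (blue). The interval of kn1 and of lg3 holds 0 without the block and lies below 0 with it, while the 2 intervals of rs2 and of knox7 are nearly the same.

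The pair differences were not alike among the genes. Pair 1 had the largest rs2 difference (-0.27) and no fall of lg3 (0.018), whereas pair 4 had the largest lg3 difference (-0.86) with an rs2 difference of -0.16. kn1 differed most in pair 3 (-0.44) and least in pair 2 (-0.12), the pair in which rs2 also differed least (-0.049). Both rs2 and kn1 were lower in DpDf in all 4 pairs, and lg3 was lower in 3 pairs, with its value of 0.018 in pair 1. The rs2 difference passed the threshold in neither fit, and a link between rs2 level and kn1 or lg3 level was not tested.

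Spread between pools of 1 genotype covered a wide range among the 4 genes. The pooled within-genotype SD of log2 values was 0.46 for lg3, at the 97.6 percentile of tested probe sets, and 0.25 for kn1, at the 88.3 percentile. It was 0.063 for rs2 (8.32 percentile) and 0.035 for knox7 (0.835 percentile), and the median of all tested probe sets was 0.13. Within DpDf the highest lg3 pool was 1.44 times the lowest, and within WT it was 2.47 times the lowest. For knox7 these ratios were 1.07 in DpDf and 1.04 in WT. kn1 and lg3 were both lowest in replicate 1 in each genotype, and both were highest in replicate 3 in WT.

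**Figure D3:**
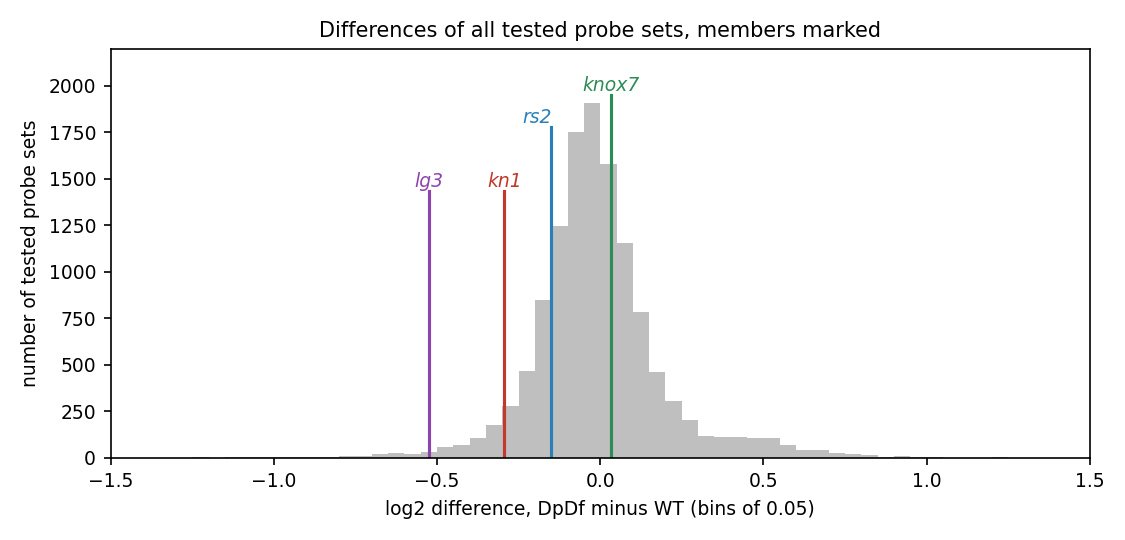
Number of tested probe sets (y axis) by log2 difference, DpDf minus WT, in bins of 0.05, with vertical lines at the members' values. lg3 (-0.53) lies in the lower tail, kn1 (-0.29) and rs2 (-0.15) lie below the median of -0.023, and knox7 (0.032) lies near the centre.

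Among the differences of all 12335 probe sets, the lg3 value stood at the 1.05 percentile, kn1 at the 4.71, rs2 at the 17.5 and knox7 at the 66.0 percentile. In all, 57.2% of tested probe sets had a lower mean in DpDf. These ranks take no account of each probe set's error.

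The 2 seed sources gave the same direction for every member. In the source of replicates 1 and 3, mean kn1 intensity was 170.7 in DpDf and 226.1 in WT, and in that of replicates 2 and 4 it was 204.3 in DpDf and 233.3 in WT (n = 2 pools each). The order from lowest to highest was therefore both DpDf means and then both WT means. The lg3 means were 82.5 in DpDf and 116.1 in WT in the first source, and 83.4 in DpDf and 135.8 in WT in the second. The log2 difference between the sources in the genotype effect (replicates 1 and 3 minus replicates 2 and 4) was -0.21 for kn1 (95% interval -0.90 to 0.49) and 0.31 for lg3 (-1.03 to 1.64). It was 0.033 for knox7 (-0.25 to 0.31) and -0.085 for rs2 (-0.37 to 0.20), and the limma adjusted p was 1.00 for all 4, with intervals wide enough for kn1 and lg3 to hold differences as large as their genotype effects.

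Likeness in pattern was taken as Pearson's r of log2 values over the 8 arrays after the mean of each replicate pair had been removed, which leaves 4 pair differences behind each r. The mean genotype difference stays in these values. Genes that differ in the same direction in DpDf therefore tend to a high r, also where their pair differences do not vary together. rs2 and kn1 had an r of 0.90, kn1 and lg3 one of 0.77 and lg3 and rs2 one of 0.58; knox7 had an r of -0.64 with kn1. Of 915 other annotated genes, 102 had an r above 0.9 with kn1, 54 with lg3, 16 with knox7 and 92 with rs2, so high values were common. The genes most like kn1 were MRP2, PIP1-3 (an aquaporin gene) and LOC542641, at r of 0.996, 0.991 and 0.988. Those most like lg3 were sdg110 (a SET domain gene), nip3a (an aquaporin-like gene) and GRP, at 0.996, 0.994 and 0.990. AGP2, pip1-2 and toc34 (a chloroplast import receptor gene) were most like knox7, at 0.981, 0.979 and 0.968, and LOC542172, KAPP and gst14 were most like rs2, at 0.997, 0.989 and 0.989. With pair means left in, r over the 8 arrays was often much lower. In the same order it was 0.38, 0.27 and 0.68 for kn1 and 0.49, 0.85 and 0.98 for lg3. It was -0.34, 0.63 and 0.77 for knox7 and 0.29, 0.98 and -0.079 for rs2. None of these 12 genes passed the threshold in limma with or without the block; the same arrays lie behind all of them.

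Of 23 further TALE homeobox symbols searched, 2 had an annotated probe set. lg4b, a KNOX gene on chromosome 6, was below the filter in every pool, at 11.8 to 12.3 in DpDf and 11.9 to 14.8 in WT, so no fold is given for it. kip1 encodes a BEL1-like partner of KN1 (BEL1-like and KNOX proteins bind DNA as pairs). DpDf pools 1 to 4 had intensities of 47.5, 59.6, 49.4 and 51.0, against 60.0, 54.4, 57.4 and 55.4 in WT replicates 1 to 4. DpDf was lower in 3 of 4 pairs, with groups that overlapped, and the log2 difference was -0.14 (SE 0.092; adjusted p in limma 0.505 unblocked and 0.423 blocked).

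In the leaf polarity and ligule list, 12 genes had a probe set and 6 passed the filter (median log2 difference -0.094). Of these 6, 0 passed the threshold in limma without the block (0 at an unadjusted p under 0.05). With the block, 0 passed it as higher in DpDf and 2 as lower. The 2 were rld1 and rld2, HD-ZIP III genes of the upper leaf side, with log2 differences of -0.33 (SE 0.15) and -0.29 (SE 0.14) and limma adjusted p of 0.0370 and 0.0307 with the block, 0.301 and 0.326 without it. Their probe sets belong to 1 transcript cluster and may share transcripts. Of all tested probe sets, 3.35% passed the threshold as lower in DpDf with the block. lg1 and lg2, ligule genes, and ns1 and ns2, which act at the leaf margin, had means below the filter value: lg1 averaged 11.0 in DpDf and 10.9 in WT, and lg2 26.9 in DpDf and 24.3 in WT. Also below it were abph1 and yab9, a gene on chromosome 5. yab9 averaged 12.2 in DpDf and 9.25 in WT and was higher in DpDf in each pair, at values near the floor.

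KNOX proteins act in part through hormones: in Arabidopsis and rice they raise cytokinin synthesis, and in maize KN1 acts on a gibberellin-inactivating gene. Of 17 tested cytokinin genes 9 had a higher and 8 a lower mean in DpDf (median log2 difference 0.026). Past the threshold in limma, 2 were higher and 0 lower, with the block as without it. An unadjusted p under 0.05 without the block was found for 4. Over all tested probe sets, 4.03% passed the threshold as higher and 0.843% as lower without the block, and 6.81% and 3.35% with it. An unadjusted p under 0.05 was found for 17.0% of them without the block. hk3, a cytokinin receptor gene on chromosome 5, was read at 143.6, 114.0, 126.3 and 99.3 in the DpDf pools in replicate order, against 82.8, 57.2, 67.7 and 57.3 in WT replicates 1 to 4. The groups did not overlap, as held in either direction for 11.3% of tested probe sets, and the log2 difference was 0.87 (SE 0.15, limma adjusted p = 0.00824). Most of the short arm of chromosome 5 is in an extra copy in DpDf, and the cause of the hk3 difference was not tested. rr6, a response regulator gene on chromosome 10, averaged 196.1 ± 15.3 in DpDf and 142.1 ± 12.0 in WT (SD, n = 4 each), a log2 difference of 0.47 (SE 0.086, limma adjusted p = 0.0126). The other two with an unadjusted p under 0.05 did not pass. For hp1, which encodes a phosphotransfer protein, the log2 difference was -0.15 (SE 0.057, limma adjusted p = 0.200), with DpDf lower in all 4 pairs. For rr4, which encodes a response regulator, it was 0.31 (SE 0.12, limma adjusted p = 0.228).

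Of 3 matched gibberellin genes 2 were tested, and 0 passed in limma with or without the block (0 at an unadjusted p under 0.05 without it, median 0.12). an1, an ent-copalyl diphosphate synthase gene, differed by 0.079 (limma adjusted p = 0.760) and d3, a cytochrome P450 gene of gibberellin synthesis, by 0.17 (limma adjusted p = 0.779). All 3 matched lignin genes were tested and 0 passed in either fit (0 at an unadjusted p under 0.05 without the block, median -0.069). pal1, a phenylalanine ammonia-lyase gene, differed by -0.11 (limma adjusted p = 0.495) and bm1, a cinnamyl alcohol dehydrogenase gene, by 0.066 (limma adjusted p = 0.694).

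**Figure D4:**
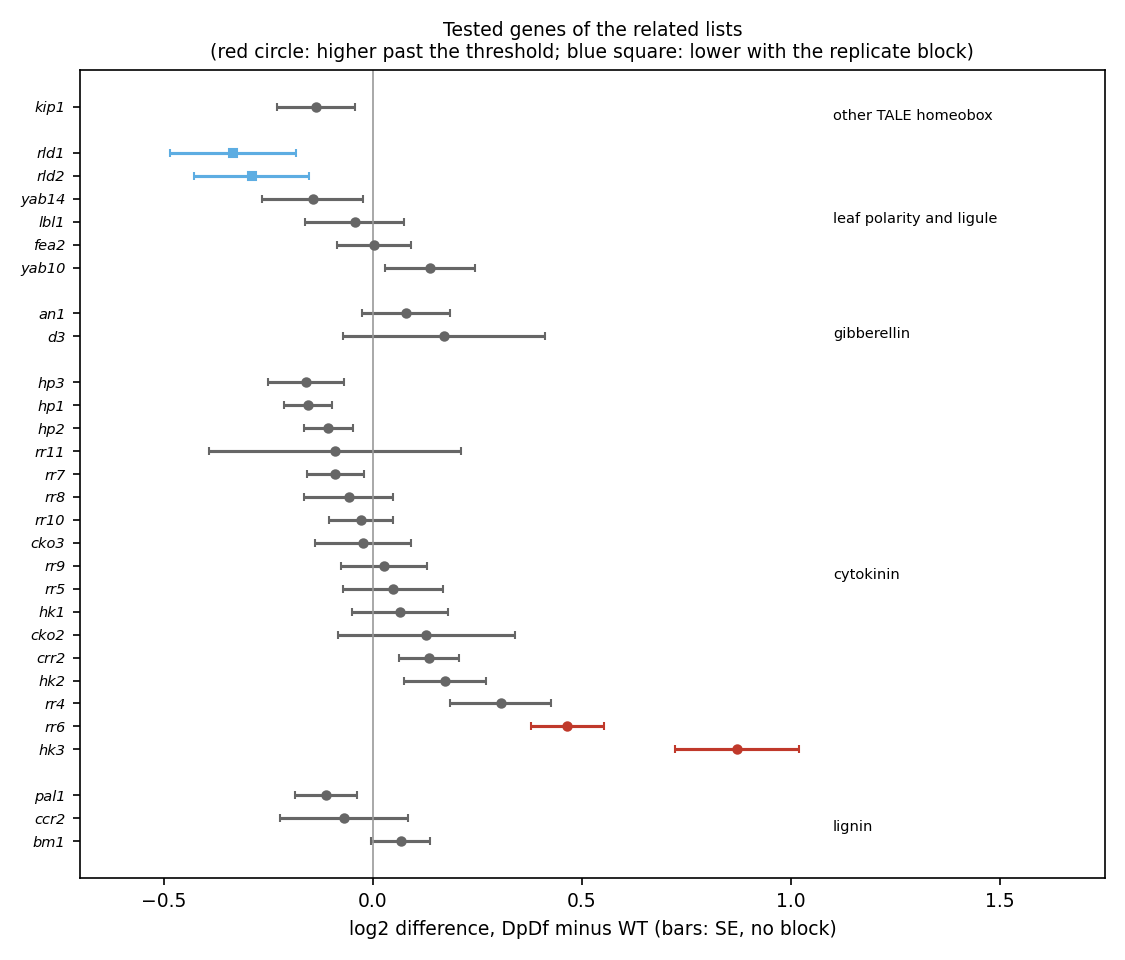
Log2 difference (DpDf minus WT, bars SE of the fit without a block) of each tested gene in the 5 related lists. hk3 (0.87) and rr6 (0.47) are the genes past the threshold without the block, and rld1 (-0.33) and rld2 (-0.29), drawn as squares, pass with the replicate block.

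**Figure D5:**
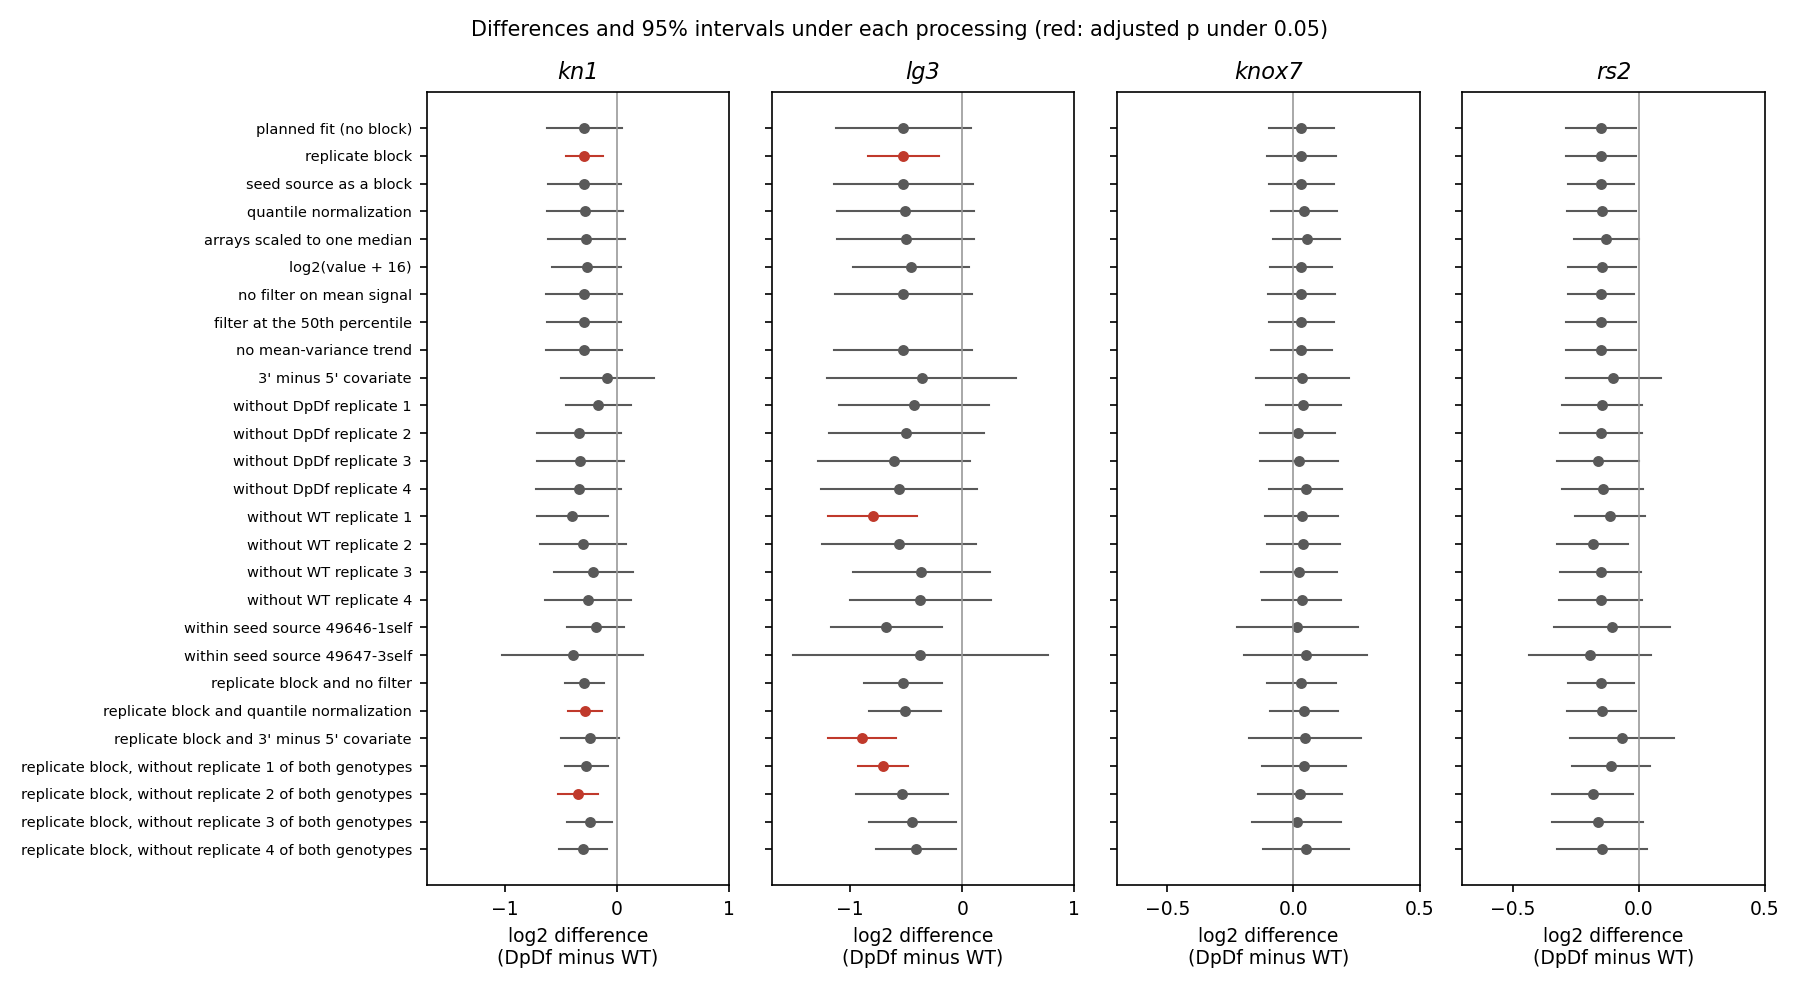
Log2 difference (DpDf minus WT) and 95% interval of each member under the planned fit and each alternative, red where the limma adjusted p is under 0.05. Red points occur for kn1 (3 alternatives) and lg3 (4 alternatives) and for no alternative of knox7 or rs2; lg3 has no value at the 50th percentile filter, which it does not pass.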

How the data were processed

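RNA from 8 seedling pools was hybridized to Affymetrix maize arrays, 1 array a pool. The deposited table holds the authors' normalized intensity on a linear scale; the submitters' processing notes name MAS5, without version or role, and how arrays were scaled remains not given in the sources used here. Values were used as log2 without a pseudocount. The 113 controls were left out, and probe sets with a mean log2 under the 30th percentile were dropped, leaving 12335. Annotation (1452 probe sets with 1 gene) was brought up to date with RefSeq names from Zm-B73-REFERENCE-NAM-5.0, which hold 1377 of them; 1 probe set had several genes and 16168 had none there.

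limma 3.58.1 in R 4.3.3 (lmFit, eBayes with trend) tested DpDf against WT with Benjamini-Hochberg adjustment over all 12335; the planned fit has no block. Same-numbered pools are siblings per the labels, as are pools of the other replicate number from that seed source. Deviations from the group means correlated at 0.36, 0.51, 0.56 and 0.33 between same-numbered pools. The highest correlation of each DpDf pool with a WT pool of another number was -0.15, 0.20, 0.11 and 0.31 in replicate order. For replicate 4 the 2 values were thus nearly alike. Values with the replicate block are therefore given beside a result where they change it. The planned fit was tested on simulated data without pairs, and the fits with a block or covariate were not. The members and lists were chosen with earlier results of these data known. Named genes are the members, the 3 genes most like each, further TALE genes, and, per list, called genes and the 2 smallest p. hp1, rr4 and the leaf polarity and ligule genes below the filter were named after their values were seen. The control transcripts were those above the filter of 7 with both ends, a rule also set after seeing values. Alternatives covered the block, seed source, normalization, a pseudocount of 16, the filter, the variance trend, the 3′ minus 5′ covariate and each pool left out.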

Additional observations from a re-analysis of the deposited data

Results flagged for a closer look

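kn1 in DpDf replicate 1 stood apart from the other DpDf pools: its log2 value was 7.16 (linear 142.7), and its gap to the next pool was 0.919 of the range of the 4 pools. Among the 4 members in 2 genotypes this was the 1 case of 8 past the cutoff set for such gaps. Chance passes that cutoff in about 1 of 20 groups. The cause was not tested.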

How the results depend on the processing

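All 26 alternatives kept the direction of kn1, knox7 and rs2, and all 25 that gave a value kept that of lg3. Those that changed only a block, the filter or the variance trend left each estimate as it was. In this balanced design they could not change a direction, so they do not count towards its stability. kn1 ran from -0.40 to -0.087, lg3 from -0.89 to -0.36, knox7 from 0.012 to 0.052 and rs2 from -0.19 to -0.066; knox7 and rs2 passed in none. The number of members called was 0 in the planned fit, 2 with the replicate block (kn1 at -0.29, lg3 at -0.53), and, in settings chosen after seeing the data, 1 with block and quantile normalization (kn1 at -0.29), 1 with block and 3′ minus 5′ covariate (lg3 at -0.89) and 0 with block and no filter. Leaving out single pools gave 0 to 1 member calls (lg3 from -0.80 to -0.36, the value of -0.80 without WT replicate 1); leaving out a pair with the block, also added later, gave 0 to 1 (kn1 from -0.35 to -0.24, lg3 from -0.71 to -0.41). Genes called in the related lists numbered 2 without and 4 with the replicate block. Of all probe sets, 601 passed in the planned fit, 1253 with the replicate block, 985 with block and no filter, 1311 with block and quantile normalization, 337 with the covariate, 32 and 1 within the seed sources of replicates 2 and 4 and of replicates 1 and 3, 389 (without WT replicate 4) to 643 when a pool was left out, and 1161, 972, 609 and 704 when pairs 1 to 4 were left out with the block. Each gene rests on 1 probe set and 4 pools a genotype, which limits precision; the probes' place in the transcripts was not used here.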
